A study of Mus musculus with 6 samples.

Results

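The chaperonins described here are the cytosolic CCT complex and the mitochondrial HSP60 complex. Their 10 genes, *Tcp1*, *Cct2*, *Cct3*, *Cct4*, *Cct5*, *Cct6a*, *Cct7*, *Cct8*, *Hspd1* and *Hspe1*, were taken by gene name from a table of 55421 genes. RNA-seq had been done on splenic B cells activated ex vivo for 24 h with 5 μg/ml LPS plus IL-4 at 5 ng/ml. The hnRNPL-deficient cells (KO, 3 libraries) were of the genotype hnRNPL F/F CD21-cre, in which Cre recombinase deletes the loxP-flanked *Hnrnpl* gene, and the control cells (WT, 3 libraries) were CD21-cre without the floxed alleles. Both groups thus carried the Cre. By the study's methods both also carried the RosamT/mG reporter, the mice were of the C57BL6/J strain, of both sexes and older than 6 weeks, and GFP+ cells, in which Cre had acted, were sorted before RNA was made. CD21-cre acts mostly in mature B cells, so the cells had developed with hnRNPL and lost it late. The paper describes the libraries of a group as coming from separate mice, which the labels do not state, and the p-values measure the spread between these libraries.

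Chaperonins are barrels of stacked rings that take up an unfolded protein and release it folded, at the cost of ATP. In CCT each ring is built of 8 different subunits, each the product of its own gene, and its best known substrates are actin and tubulin, which the prefoldin complex hands over. HSP60, encoded by *Hspd1*, forms rings of 1 kind of subunit in the mitochondrial matrix, and HSP10, encoded by *Hspe1*, is the lid that closes them over imported proteins. B cells that are activated grow, divide and make much protein, and chaperonins are known to be abundant in such cells.

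*Hspd1* and *Hspe1* are neighbours on chromosome 1 that are read in opposite directions from a shared promoter region, so its sequence is shown first. In GENCODE on GRCm38, *Hspd1* (ENSMUSG00000025980.14, minus strand) spans chr1:55077835-55088243 and *Hspe1* (ENSMUSG00000073676.4, plus strand) spans chr1:55088132-55091307. Their principal transcripts start at 55088024 and 55088132, with 107 bases between them. The stretch below is chr1:55088053-55088082, plus strand, from RefSeq's GRCm38.p6, and lies between these starts. An alternative *Hspd1* transcript that starts at 55088243 has its first exon across it. The capitals mark 3 overlapping matches to the inverted repeats of the heat shock element, the site bound by heat shock factors, written as TTCNNGAA and GAANNTTC.
between *Hspd1* and *Hspe1*: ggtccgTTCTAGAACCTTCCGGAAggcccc
The marked run, 18 bases long, was searched as the pattern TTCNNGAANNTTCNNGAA on both strands of all 32851 RefSeq promoter windows, each from 250 bases before to 50 bases after a gene's start. It was in 5 windows (0.0152%), those of *Hspd1*, *Hspe1*, *Arpc2*, *Chordc1* and *Fam149a*, and the windows of *Hspd1* and *Hspe1* hold the same bases.

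The other stretches shown are the matches to the same inverted repeats before the RefSeq starts of CCT genes, and the E-box CACGTG, a site bound by MYC and related factors, which was in a window of *Hspd1* alone among the chaperonin genes. They are given 5′ to 3′ on the minus strand, the strand of all 3 genes, with the match in capitals. The *Hspd1* stretch is chr1:55088306-55088335, inside the first exon of *Hspe1* on the other strand, the *Cct2* stretch is chr10:117063399-117063428, before the RefSeq start at 117063375 but after the GENCODE start at 117063814, so inside the GENCODE gene and outside its exons, and the *Cct5* stretch is chr15:31601862-31601891, in a non-coding exon of the divergent gene *Fam173b*.
*Hspd1*: ggccggctgggaCACGTGaaaaggccgcgc
*Cct2*: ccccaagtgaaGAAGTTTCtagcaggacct
*Cct5*: acagcggccgaTTCCAGAAgctactctgcg
RefSeq had 12 windows, for 9 of the 10 genes. TTCNNGAA was in the windows of 4 of them (*Hspd1*, *Hspe1*, *Cct5* and, after the start, *Cct6a*) and in 8.52% of all windows. GAANNTTC was in those of 3 (*Hspd1*, *Hspe1* and *Cct2*) and in 7.86% of all, and CACGTG was in 7.15% of all. CCAAT, searched on both strands, was in the windows of 5 (*Hspd1*, *Cct3*, *Cct6a*, *Cct7* and *Tcp1*) and in 37.4% of all. Counted by window, as the shares are, TTCNNGAA, GAANNTTC, CACGTG and CCAAT were in 4, 3, 1 and 5 of the 12. A match is a match of letters, and no binding was measured.

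The values are normalized counts, that is, reads per gene divided by a DESeq2 size factor of the library. Libraries held 40395186 to 75180749 reads on genes, and KO library 3 was the shallowest. *Hnrnpl* itself stood at 24371, 25580 and 24174 in WT but at 2178, 1519 and 1297 in KO libraries, with a log2 fold change of -3.93 (SE, standard error, 0.173). Genes that define B cells summed to 277632 to 355972 normalized counts in WT and 271886 to 322100 in KO libraries, and of the T cell list 6 of 7 genes and of the myeloid list 5 of 7 had a mean under 10. Of the T cell list, *Lck* had 892 to 1006 normalized counts in WT and 615 to 855 in KO libraries. Its groups did not overlap, but it did not pass (adjusted p = 0.181 from limma). Of the myeloid list, *Adgre1* had 236 to 315 normalized counts in WT and 1217 to 1369 in KO libraries. Summed erythroid markers were 17.6 to 38.3 in WT and 55.0 to 84.8 in KO libraries, and summed plasma cell markers 33957 to 39571 and 33296 to 36361. Of the 5 plasma cell markers *Jchain* was called lower (117, 109 and 26.0 normalized counts in WT, 23.4, 7.07 and 13.7 in KO libraries), and the other 4 did not pass. The part of these markers in the chaperonin values was not tested. In a bulk sample, fewer cells of a type and less RNA per cell cannot be told apart.

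All 10 chaperonin genes were measured far above the filter on low values, at ranks 139 to 737 by mean among the 17640 genes tested. Each had a lower mean in KO than in WT libraries, by 12.1% to 26.6% for the CCT subunits, 29.9% for *Hspe1* and 40.5% for *Hspd1*. Over all tested genes, 52.7% had a negative log2 fold change. With limma and Benjamini-Hochberg adjustment over all tested genes, 6 of the 10 fell at an adjusted p under 0.1, namely *Hspd1* and the 5 CCT genes *Tcp1*, *Cct8*, *Cct6a*, *Cct2* and *Cct3*, against a background of 7.97% of genes. *Hspd1* alone also reached a fold of 1.5, and this call of 1 in 10 stands beside 4.08% of all tested genes. In 8 of the 10, all 3 KO values lay below all 3 WT values, as they did in 16.3% of all tested genes.

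**Figure D1:**
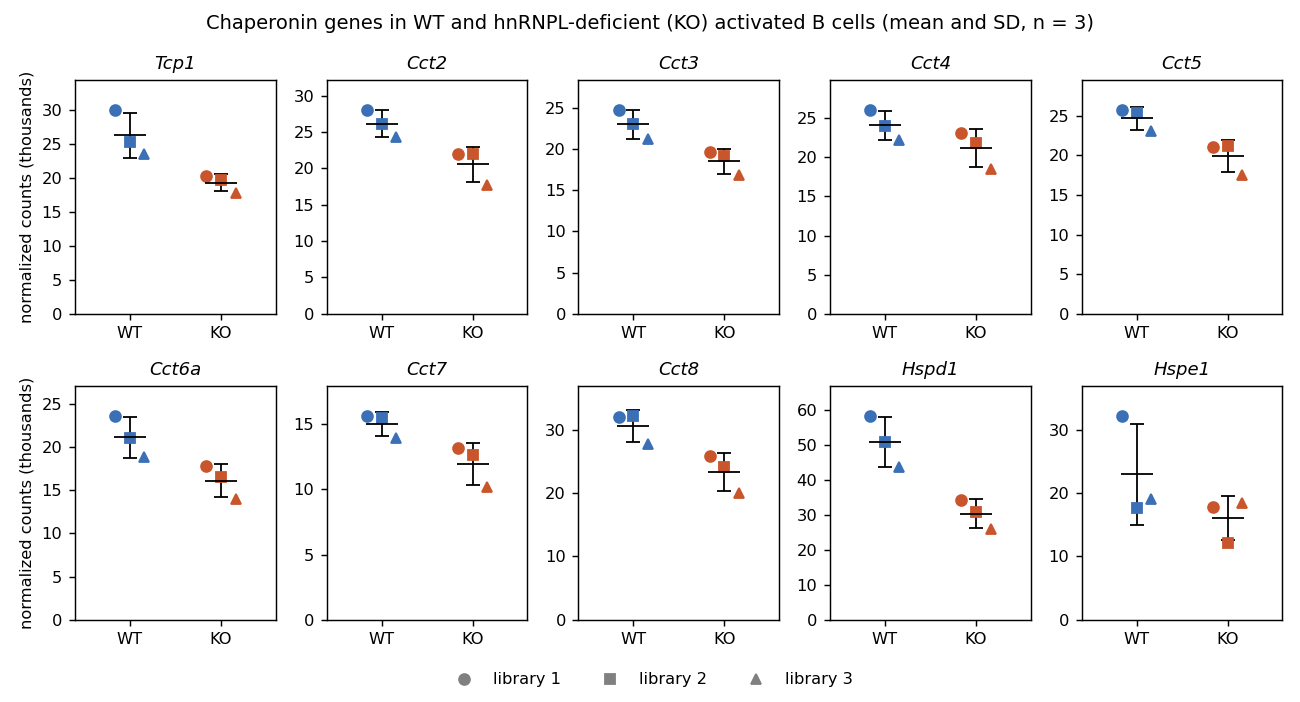
Normalized counts (in units of 1000, each panel with its own axis from 0) of the 10 chaperonin genes in 3 WT (blue) and 3 KO (orange) libraries, with the mean as a long line and the SD as a bar. The groups do not overlap except in *Cct4* and *Hspe1*, and the triangle of KO library 3 is the lowest point in 9 of the 10 panels.

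*Hspd1* was the most abundant of the 10 genes by normalized count. It had 58224, 50930 and 43874 normalized counts in WT libraries 1, 2 and 3 and 34188, 30863 and 25970 in KO libraries 1, 2 and 3. The groups were well apart, with the highest KO library below the lowest WT library. The log2 fold change was -0.75 (SE 0.143, 95% interval -1.08 to -0.42, adjusted p = 0.0142 from limma).

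*Hspe1* behaved less evenly between libraries. Its normalized counts were 32084, 17567 and 19119 in WT libraries and 17747, 12112 and 18357 in KO libraries. The groups overlapped, WT library 1 stood far above the other 5, and KO library 2 was the lowest. The log2 fold change of -0.48 (SE 0.242, 95% interval -1.04 to 0.07, adjusted p = 0.239 from limma) did not pass the test. Without WT library 1 it was -0.21, and without KO library 2 it was -0.29.

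Because ring and lid are read from 1 promoter region and work together, their ratio was taken within each library. *Hspd1* had 1.81, 2.90 and 2.29 times the normalized count of *Hspe1* in WT libraries and 1.93, 2.55 and 1.41 times in KO libraries. The ranges overlapped. The mean log2 ratio was 1.20 in WT and 0.93 in KO libraries, a difference of -0.27 with p = 0.5 in a two-sided exact permutation test, in which 3 libraries against 3 cannot give less than 0.1. The difference ran from -0.47 to -0.05 when single libraries were left out.

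Among the CCT genes, *Tcp1*, which encodes the alpha subunit and lies at chr17:12915701-12925067 on the plus strand, had the largest log2 fold change. Its lead over *Cct8* was not stable, since *Cct8* came first without WT library 1 (-0.37 against -0.34). *Tcp1* had 29915, 25206 and 23499 normalized counts in WT libraries and 20236, 19702 and 17803 in KO libraries. No KO library reached the lowest WT library. The log2 fold change was -0.44 (SE 0.116, 95% interval -0.71 to -0.17, adjusted p = 0.0452 from limma).

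*Cct8*, the theta subunit (chr16:87483326-87495873, minus strand), was the most abundant CCT gene by normalized count. Its values were 31968, 32094 and 27744 in WT libraries and 25828, 24054 and 19944 in KO libraries, with a log2 fold change of -0.40 (SE 0.124, adjusted p = 0.0738 from limma). This was the only chaperonin gene that was highest in WT library 2.

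*Cct6a*, the zeta subunit (chr5:129786998-129846371, plus strand), fell to a similar degree. It had 23567, 21034 and 18850 normalized counts in WT libraries and 17832, 16510 and 14025 in KO libraries, a log2 fold change of -0.39 (SE 0.126, adjusted p = 0.0820 from limma). The groups did not overlap. The GENCODE release used here lists this gene as a processed transcript, so its transcript length came from a non-coding model.

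*Cct2* encodes the beta subunit (chr10:117051001-117063814, minus strand). It had 28015, 26157 and 24270 normalized counts in WT libraries and 21975, 21986 and 17773 in KO libraries, a log2 fold change of -0.35 (SE 0.117, adjusted p = 0.0931 from limma). KO libraries 1 and 2 were nearly equal, and KO library 3 lay well below them.

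*Cct3* encodes the gamma subunit (chr3:88297116-88321767, plus strand). Its normalized counts were 24743, 23101 and 21194 in WT libraries and 19618, 19227 and 16815 in KO libraries, a log2 fold change of -0.31 (SE 0.106, adjusted p = 0.0983 from limma). It was the last to pass, just under the threshold of 0.1.

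*Cct5* and *Cct7* lay just on the other side of that threshold, with groups that did not overlap either. *Cct5*, the epsilon subunit (chr15:31590800-31601804, minus strand), had 25716, 25406 and 23043 normalized counts in WT libraries and 21108, 21165 and 17569 in KO libraries, a log2 fold change of -0.31 (95% interval -0.56 to -0.06, adjusted p = 0.105 from limma). *Cct7*, the eta subunit (chr6:85451514-85468475, plus strand), was the least abundant of the 10, with 15595, 15449 and 13963 normalized counts in WT libraries and 13157, 12601 and 10154 in KO libraries. Its log2 fold change was -0.33 (95% interval -0.60 to -0.06, adjusted p = 0.113 from limma). Their fold changes were as large as that of *Cct3*, which passed.

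*Cct4* encodes the delta subunit (chr11:22990519-23003780, plus strand). It had 26028, 23993 and 22248 normalized counts in WT libraries and 23173, 21831 and 18515 in KO libraries. It was the only CCT gene whose groups overlapped, KO library 1 being above WT library 3. The log2 fold change was -0.19 (95% interval -0.45 to 0.07, adjusted p = 0.332 from limma), and the interval includes both no difference and the values of the other subunits.

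**Figure D2:**
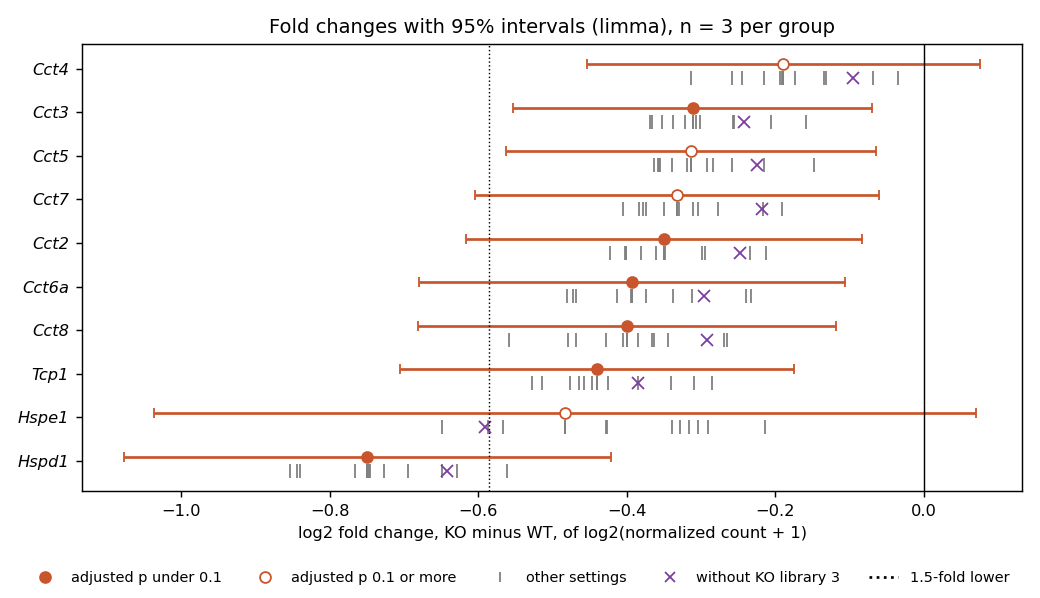
Log2 fold change (KO minus WT, of log2(normalized count + 1)) of each chaperonin gene with its 95% interval from limma, n = 3 libraries per group, filled where the adjusted p is under 0.1, with the values under the other settings as grey ticks and that without KO library 3 as a cross. All values lie below 0, *Hspd1* at -0.75 is farthest out, and without KO library 3 the cross moves toward 0 for every gene but *Hspe1*.

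The CCT subunits had a median log2 fold change of -0.34 and all 10 genes one of -0.37, while the median over all tested genes was -0.03. Among protein-coding genes with a mean of at least 1000, the median log2 difference, KO minus WT, was -0.06. It was -0.11 for transcripts of 1500 to 2000 bases and -0.08 for 2000 to 3000 bases, the classes of the CCT genes and *Hspd1*. Library by library, most of the genes shared their extremes, though not the full order between them. For *Hspe1*, WT library 2 lay below KO library 3. WT library 1 held the highest value of 9 of the 10 and KO library 3 the lowest of 9 of the 10, where 25.6% of all tested genes had their lowest value in KO library 3. The share of all tested genes that were highest in WT library 1 was not counted. The sum of all normalized counts had the same extremes, being highest in WT library 1 (62255001) and lowest in KO library 3 (55367505). Scaled to equal sums, the median of all tested genes was 0.03, that of the chaperonin genes was -0.32, and 7 of them passed. Libraries also differed by the GC content of transcripts, taken among protein-coding genes with a mean of at least 1000. In WT library 1 the median log2 deviation from a gene's mean was 0.15 at 42% to 46% GC and 0.09 at 46% to 50%. At 50% to 54% it was 0.01, and above 54% it was -0.07. In KO library 3 these medians were -0.02, -0.07, -0.12 and -0.21. The principal transcripts of the chaperonin genes ran from 43.32% GC (*Cct8*) to 53.95% (*Cct7*). The part of GC content in the library differences of the chaperonin genes was not tested.

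KO library 3 was also low in short transcripts. Among protein-coding genes with a mean of at least 1000, its median log2 deviation from a gene's mean was -0.26 for transcripts up to 1000 bases, -0.17 for 1500 to 2000 bases, -0.11 for 2000 to 3000 bases and -0.01 above 5000 bases. The principal transcripts of the CCT genes are 1853 to 2484 bases long, and these genes deviated by -0.28 to -0.41 in that library, *Hspd1* (2423 bases) by -0.59. Since a deviation is taken from the mean of all 6 libraries, those of the chaperonin genes in a KO library include their difference between the groups. *Hspe1*, with 774 bases, deviated by -0.03 in KO library 3, by 0.78 in WT library 1 and by -0.63 in KO library 2, while the medians of transcripts up to 1000 bases in the latter 2 were 0.07 and 0.06.

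Without KO library 3 the log2 fold changes of the CCT genes were -0.38 to -0.10, the median of the 10 genes was -0.27, and *Hspd1*, at -0.64 (adjusted p = 0.0370 from limma), was the only one to pass. Without WT library 2 it was again the only one, and 2 passed without WT library 1, WT library 3 or KO library 2. After a correction of each library for transcript length and GC content, which was chosen after seeing the data, 8 of the 10 passed, with *Hspd1* at -0.84 and the CCT genes at -0.56 to -0.31. Over all tested genes, this correction took those called lower from 719 to 987 and those called higher from 1284 to 1240. The median of all tested genes went from -0.03 to -0.06. The share of all tested genes that passed at any fold after the correction was not counted. The fall of *Hspd1* thus passed without any 1 of the libraries, whereas the count of CCT genes that passed depended on single libraries.

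To compare levels between genes, normalized counts were divided by the length of the principal transcript. Per kilobase, *Hspe1* had the highest level in WT libraries (29617 ± 10298, SD, n = 3), followed by *Hspd1* (21052 ± 2961). The order of these genes depends on the length used, since with all annotated exons joined *Hspd1* came first. The CCT subunits ranged from 13347 ± 956 for *Cct2* down to 6146 ± 370 for *Cct7*. Between them came *Cct5* (13341 ± 789), *Cct8* (12783 ± 1034), *Cct3* (11640 ± 899), *Tcp1* (10714 ± 1358), *Cct4* (9698 ± 762) and *Cct6a* (8619 ± 962). From *Cct2* to *Cct6a* the ranges of mean ± SD of neighbours in this order overlapped, as did those of *Hspe1* and *Hspd1*, while *Hspd1* and *Cct2*, and *Cct6a* and *Cct7*, were apart by more than their SDs. The ring takes its subunits in equal number, but the levels of their transcripts per kilobase were not equal.

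The sum of the 8 CCT levels per kilobase was 86288 ± 6854 in WT and 68242 ± 7243 in KO libraries (SD, n = 3). The make-up of this sum was much the same in both groups. *Cct4* was the exception, with 11.2% of the sum in WT libraries (range 11.1% to 11.3%) and 12.5% in KO libraries (12.4% to 12.7%). Relative to the geometric mean of the 8 subunits of the same library, it was 0.15 higher in KO on the log2 scale, and the groups did not overlap, while those of the 7 other subunits did. *Cct4* was singled out here after its values were seen, so no test is given.

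**Figure D3:**
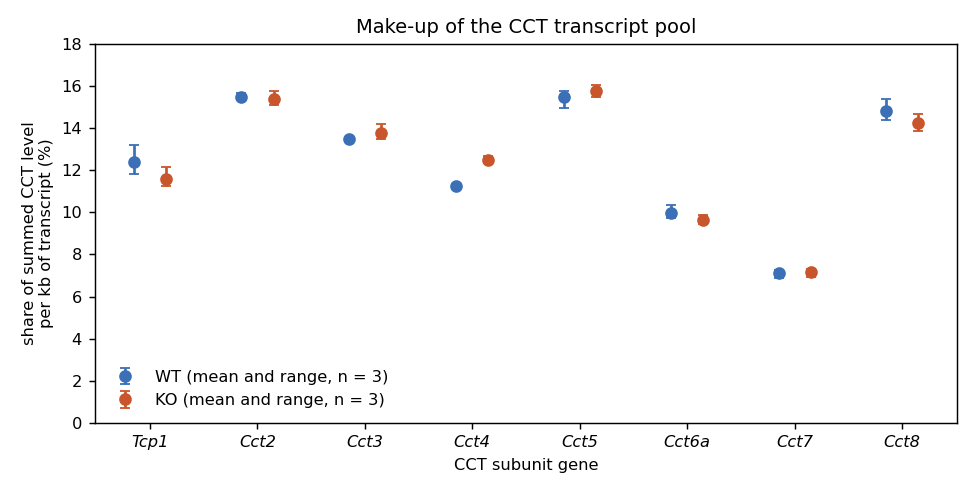
Share of each subunit gene in the summed CCT level per kilobase of transcript (percent, axis from 0), as the mean and range of 3 WT (blue) and 3 KO (orange) libraries. *Cct4* goes from 11.2% in WT to 12.5% in KO libraries without overlap, and *Cct7* has the smallest share in both groups.

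*Hspd1* has processed copies elsewhere in the genome, and reads may have been shared with them. The table holds 5 annotated copies of it, of which 3 were tested. *Hspd1-ps3* (chr11:41498737-41500458, plus strand, a processed pseudogene) had 9893, 5435 and 5882 normalized counts in WT libraries and 4702, 2959 and 4538 in KO libraries. Its log2 fold change was -0.77 (SE 0.251, adjusted p = 0.0846 from limma). In its order of libraries, with WT library 1 on top and KO library 2 at the bottom, it was more like *Hspe1* than like *Hspd1*. The other 2 tested copies of *Hspd1* did not pass. Together the copies of *Hspd1* had 14.0% of its normalized count in WT and 13.5% in KO libraries. With copies added, the log2 ratio of KO to WT means was -0.76 for *Hspd1*, beside a fitted log2 fold change of -0.75 for the gene alone.

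Genes of chaperonin-like proteins had higher values in KO libraries or too few reads to test. *Bbs10*, *Bbs12* and *Mkks* encode chaperonin-like proteins that assemble the BBSome, a complex of the primary cilium. *Bbs10* had 234, 200 and 174 normalized counts in WT and 354, 295 and 381 in KO libraries, and rose with a log2 fold change of 0.76 (adjusted p = 0.0355 from limma). *Bbs12* had 240, 201 and 174 in WT and 296, 327 and 397 in KO libraries, and rose by 0.73 (adjusted p = 0.0465). *Mkks* had a log2 fold change of 0.43 (adjusted p = 0.106), again with all KO above all WT values. Of all tested genes, 7.28% were called higher, and 17.7% had all KO above all WT values. Neither *Bbs10* nor *Bbs12* passed without WT library 2 or without WT library 3, and *Bbs12* did not without KO library 2 or KO library 3. *Cct6b*, the paralog of *Cct6a* best known from testis, had 3.03 to 8.12 normalized counts, and *Cct8l1* was at 0 in all 6 libraries.

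Few of the partners that serve CCT passed the test. Of the 6 prefoldin subunits, which carry unfolded actin and tubulin to CCT, 0 passed in limma, edgeR or DESeq2, and 0 had an unadjusted p under 0.05 in any of them. Their median log2 fold change was -0.05, and 0.01 with libraries scaled to equal sums. The most abundant, *Vbp1*, had 5223, 4338 and 3548 normalized counts in WT and 5658, 4139 and 4182 in KO libraries (log2 fold change 0.09, adjusted p = 0.756). Of 8 tested CCT cofactors, among them the phosducin-like proteins that act on CCT and the tubulin cofactors downstream of it, only *Pdcl* passed. This is 1 gene of 8, where 10.0% of all tested genes passed as higher and 7.97% as lower. *Pdcl* rose, from 1754, 1670 and 1432 normalized counts in WT to 2554, 2119 and 2090 in KO libraries (log2 fold change 0.48, adjusted p = 0.0462), but did not pass without WT library 2, WT library 3 or KO library 1. The median of the list was 0.13. *Txndc9*, the most abundant, had a log2 fold change of 0.12 (adjusted p = 0.519).

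Of 17 genes of known CCT substrates, 3 fell and 2 rose at an adjusted p under 0.1, beside 7.97% and 10.0% of all tested genes, with a median log2 fold change of -0.24. The count of lower genes was 1 without WT library 2. *Tuba4a*, an alpha-tubulin, had 9903, 10091 and 9477 normalized counts in WT and 5684, 6332 and 4645 in KO libraries, a log2 fold change of -0.83 (adjusted p = 0.00485 from limma). *Tubb4b* (-0.40, adjusted p = 0.0285) and the actin *Actg1* (-0.41, adjusted p = 0.0777) also fell, and the scarce tubulins *Tubb6* (0.67, adjusted p = 0.0755) and *Tubb2a* (0.65, adjusted p = 0.0813, named after its values were seen) rose. Neither of these passed without WT library 2, WT library 3, KO library 1 or KO library 2, nor in edgeR or DESeq2. Among the genes that fell, *Actg1* did not pass in 11 of 20 alternative settings, *Tubb4b* in 1 and *Tuba4a* in 0. *Actb*, the most abundant of the list, had 742891, 735272 and 695856 normalized counts in WT and 603061, 610040 and 501226 in KO libraries. Its groups did not overlap, but its log2 fold change of -0.35 did not pass (adjusted p = 0.196).

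The cytosolic HSP70 and HSP90 system, whose chaperones pass unfolded proteins between them and to CCT, had the largest share of lower genes of the 6 lists. Of 19 tested, 10 fell at an adjusted p under 0.1 and none rose, where 7.97% and 10.0% of all tested genes did, and the median log2 fold change was -0.43. At an unadjusted p under 0.05, 14 were lower and 0 higher, and edgeR and DESeq2 gave 6 and 11 lower and 0 higher at the adjusted threshold. The shares of all tested genes at that unadjusted p, and in edgeR and DESeq2 at any fold, were not counted. These counts therefore have no background beside them. Without KO library 3 the count was 5, and without WT library 1 or WT library 2 it was 4. *Hspa8*, the constitutive HSP70, had 211654, 208010 and 190830 normalized counts in WT and 132857, 139828 and 105493 in KO libraries (log2 fold change -0.70, adjusted p = 0.0176). All KO libraries were far below the WT libraries. Its exchange factors *Hsph1* (-0.68, adjusted p = 0.0168) and *Hspa4* (-0.61, adjusted p = 0.0216) and the HSP90 activator *Ahsa1* (-0.52, adjusted p = 0.0175) fell with it. *Bag3* (-1.06, adjusted p = 0.0411) and *Hsp90aa1* (-0.62, adjusted p = 0.0565), which complete the 5 genes of the list that were called lower, were named after their values were seen. *Hsp90ab1*, the most abundant gene of the list, had a log2 fold change of -0.36 (adjusted p = 0.105). *Hsf1*, the heat shock factor that binds heat shock elements, had 1802, 2464 and 2277 normalized counts in WT and 1832, 2240 and 1876 in KO libraries, with overlapping groups (log2 fold change -0.13, adjusted p = 0.594).

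Among 14 genes of the mitochondrial HSP70 and HSP90 chaperones and the proteases of the same organelle, 3 fell and 1 rose, beside 7.97% and 10.0% of all tested genes, with a median log2 fold change of -0.18. *Hspa9*, the mitochondrial HSP70 that passes imported proteins to HSP60, had 31843, 33772 and 28834 normalized counts in WT and 25400, 24663 and 20478 in KO libraries (log2 fold change -0.42, adjusted p = 0.0521 from limma). It did not pass in 5 of 20 alternative settings. The proteases *Htra2* (-0.60, adjusted p = 0.0192) and *Afg3l2* (-0.55, adjusted p = 0.0227) fell as well. *Clpb*, a disaggregase of the intermembrane space, rose (0.39, adjusted p = 0.0433), but did not pass without WT library 3, KO library 1 or KO library 2. These values stood beside the -0.75 of *Hspd1*.

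**Figure D4:**
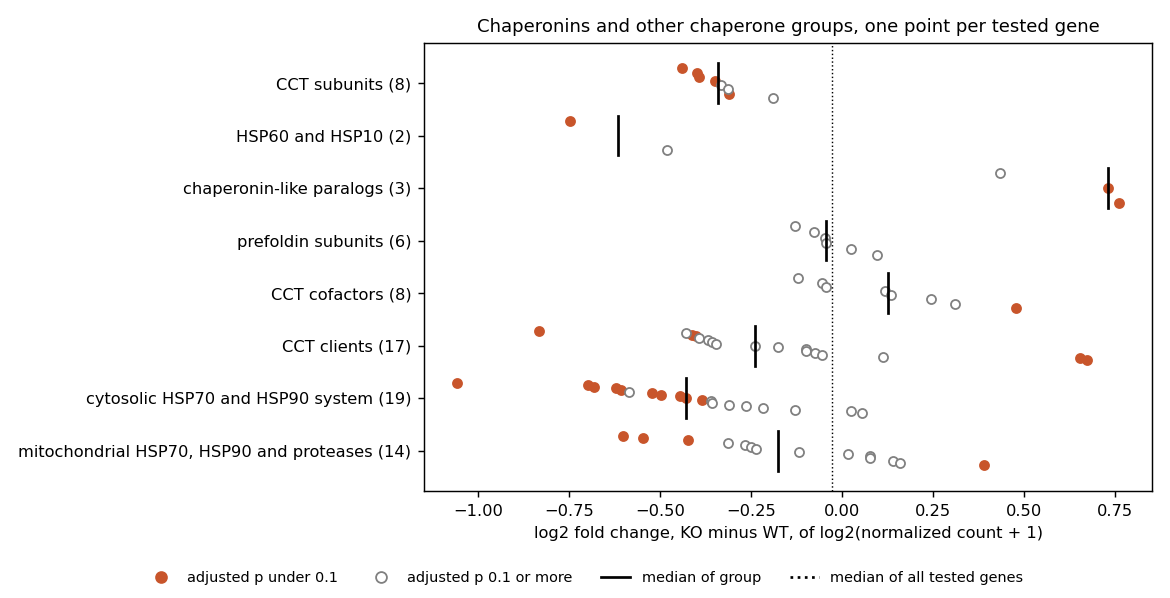
Log2 fold change (KO minus WT, of log2(normalized count + 1)) of every tested gene of the chaperonins and of 6 groups of related genes, 1 point per gene, filled where the adjusted p from limma is under 0.1, with the median of each group as a bar and that of all tested genes (-0.03) as a dotted line. The CCT subunits lie together around -0.34 and the cytosolic HSP70 and HSP90 system around -0.43, while prefoldin lies around -0.05 and the chaperonin-like paralogs lie above 0.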

How the data were processed

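RNA-seq of activated splenic B cells, 3 WT and 3 hnRNPL-deficient libraries grouped by the submitters' labels, was analysed. Poly(A) RNA had been sequenced as paired reads. The authors trimmed reads with fastp 0.23.1, aligned them to mm10 with STAR 2.7.9a, counted them per gene and strand with featureCounts (GENCODE vM23) and divided by DESeq2 1.38.2 size factors. The deposited values are thus normalized counts, a signal and not whole numbers. The deposited table also holds the authors' fold changes and p-values, which were not used.

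All values were whole multiples of 1 read (100%, tolerance 0.1 read). Log2(normalized count + 1) was tested with limma 3.58.1 (R 4.3.3) with a mean-variance trend, keeping the 17640 genes whose mean reached 10, at an adjusted p under 0.1 (Benjamini-Hochberg) and, for calls, a fold of 1.5. A log2 value with 1 added understates changes of low genes. The study tested counts, so edgeR 4.0.16 and DESeq2 1.42.0 were run on recovered reads as alternatives. The reads of KO library 2 did not enter them, although its values too were whole multiples of 1 read. A separate automatic check for whole reads could not read that library, whose step lies close to 1. This left 5 libraries, so in edgeR and DESeq2 the KO group was KO libraries 1 and 3. Tests were tried on simulated data.

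The 10 genes and the lists of related genes were chosen with earlier results of these data known. Named were all members, their annotated copies (those of *Hspd1* are reported here), *Hsf1* and, of each list, up to 4 genes that passed with the smallest adjusted p and the most abundant. Positions and lengths come from GENCODE vM21, which matched 55240 of 55421 identifiers, and promoter windows from RefSeq on GRCm38.p6. *Tcp1*, *Cct6a*, *Cct7*, *Cct8*, *Hspd1* and *Hspe1* overlap genes on the opposite strand, which the stranded counting separates.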

Additional observations from a re-analysis of the deposited data

How the results depend on the processing

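The lower values of all 10 chaperonin genes kept their sign under all 20 alternatives, and *Hspd1* passed its threshold in all of them (log2 fold change -0.85 to -0.56, adjusted p from 6.81e-04 to 0.0504). Other filters on low values, no mean-variance trend, the replicate block and stricter thresholds leave a fold change as it was. The sign could not change under those. The 2 settings at an adjusted p under 0.05 differ in fold alone, so at any fold they give the same answer. *Hspd1* was the 1 gene called lower in 18 alternatives, and 0 were called with array weights, which put it at -0.56, or at an adjusted p under 0.05 and 2-fold. The count of 6 that passed at any fold was less stable. It was 3 with no filter on low values, 3 with quantile normalization, 1 with no mean-variance trend, 2 with array weights, 2 at an adjusted p under 0.05 with either fold, 2 with edgeR, and between 1 and 4 with single libraries left out. *Tcp1* passed in 17 alternatives, *Cct8* in 10, *Cct2* and *Cct6a* in 7 each and *Cct3* in 6. With the replicate number as a block, 9 of the 10 passed (not *Cct4*), and *Hspd1* had an adjusted p of 6.81e-04 from limma. In that setting 27 genes of the related lists were lower. Over all tested genes the block gave 1018 called lower and 1755 called higher, more than the 719 and 1284 without it. The share of all tested genes that passed at any fold was counted in the main fit alone. The replicate numbers share no known source. Deviations from the group means correlated by 0.43, 0.32 and 0.07 between same-numbered libraries, and WT library 3 correlated best with KO library 2 (0.31). Without the block 16 genes of those lists were lower and 6 higher. The lower count was 9 with no trend and 9 at an adjusted p under 0.05, and 7 to 15 with single libraries left out, and the higher count was then 0 (without WT library 3) to 7. Over all genes 1284 were called higher and 719 lower, 610 and 216 at an adjusted p under 0.05 and 2-fold, and 850 to 1124 and 483 to 695 with single libraries left out, the fewest higher genes without WT library 3. *Hspd1-ps3* did not pass in 10 alternatives. The causes were not tested. By normalized count the least abundant of the 10 genes, *Cct7*, had 10154 in its lowest library.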
